A study of Mus musculus with 4 samples.

Results

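The genes described here are those of the major histocompatibility complex (MHC) class II pathway: H2-Aa, H2-Ab1, H2-Eb1, H2-DMa, H2-DMb1, Cd74 and Ciita. They were chosen by name, and all 7 were found among the 32265 genes listed for each of 4 single-cell libraries. The cells came from the bone marrow of C57BL/6 mice and were sorted for the LSK phenotype (no lineage markers, with Sca1 and cKit on the surface), a gate that holds stem and progenitor cells. The groups were CML mice given imatinib, wild-type (WT) mice given imatinib, untreated CML mice and untreated WT mice. CML is chronic myeloid leukaemia, and imatinib is an inhibitor of its driving tyrosine kinase; the labels do not say how the disease was produced in these mice. The dose of imatinib was 400 mg/kg by gavage every other day, and the labels give its length as 30 days in one place and 4 weeks in another. Each group holds 1 library, made with the inDrop droplet method, so no difference below has a replicate check, no test was possible, and every 95% interval covers counting error only.

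MHC class II molecules show peptides from outside the cell to CD4 T cells. H2-Aa and H2-Ab1 encode the alpha and beta chains of the I-A molecule, and H2-Eb1 encodes the beta chain of I-E, which C57BL/6 mice do not display because they lack a working alpha chain gene for it. Cd74 encodes the invariant chain that fills the groove until H2-DM, made of H2-DMa and H2-DMb1, exchanges the remaining fragment for a peptide. Ciita is the transactivator that switches on the whole set. The set is a hallmark of dendritic cells, B cells and macrophages, while plasma cells shut Ciita off as they mature.

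In GRCm38, H2-Aa, H2-Ab1, H2-Eb1, H2-DMa and H2-DMb1 lie together on chromosome 17. Regulatory factors that work with Ciita bind the X box and the Y box just before the start of class II genes. RefSeq promoter entries of GRCm38.p6 matched 4 of the 7 genes by symbol, and the 150 bases before each start were searched on both strands. The promoters of H2-Aa, chr17:34287824-34287973 on the minus strand, and of H2-Eb1, chr17:34305717-34305866 on the plus strand, are shown because the levels of these 2 genes differed in the same direction in Hlf-positive cells. Capitals mark the Y box core ATTGG on either strand and the X box, searched as the capitals of H2-Eb1 spell it but with any base allowed as the third and the seventh letter.
H2-Aa: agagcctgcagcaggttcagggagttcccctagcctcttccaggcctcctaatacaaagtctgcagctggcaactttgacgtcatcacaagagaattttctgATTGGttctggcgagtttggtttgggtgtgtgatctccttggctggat
H2-Eb1: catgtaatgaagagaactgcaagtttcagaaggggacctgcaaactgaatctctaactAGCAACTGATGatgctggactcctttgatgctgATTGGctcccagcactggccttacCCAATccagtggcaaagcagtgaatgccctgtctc
H2-Eb1 held the X box 92 bases before the start and the Y box core 59 bases before it. H2-DMb1 held both as well, at 95 and 61 bases, H2-Aa held the Y box core only, and neither set of letters was in the 2 windows of H2-DMa. Those windows, chr17:34122682-34122831 and chr17:34125368-34125517, lie inside the annotated gene, chr17:34119541-34139101, and not at its start. Only these letters were searched, so a box spelled otherwise would be missed. Among all 32851 promoter entries, 0.122% held the X box letters, 24.5% held the Y box core and 0.0304% held both. The X box letters are given here through H2-Eb1, so the match in H2-Eb1 is a description and not a check. A longer Y box, CTGATTGG, was searched before the core and was in 3.16% of entries; it matched H2-Aa and H2-Eb1 but not H2-DMb1.

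The libraries differed in ways that touch every comparison. After filtering they held 5139 cells for CML imatinib, 4187 for WT imatinib, 3032 for CML untreated and 3030 for WT untreated, with medians of 1198, 1486, 5160.5 and 3637.5 UMIs (unique molecular identifiers, 1 per captured transcript) per cell. Depth and treatment therefore cannot be told apart. Kit, a gene of the sort, had a UMI in 14.2% to 40.5% of cells. Mpo, a granule gene of myeloid progenitors, stood at 4700 and 5802 CPM (UMIs of the gene per 1000000 UMIs) in the CML and WT imatinib libraries, against 648 and 823 CPM in the CML and WT untreated libraries. Xist, expressed from the inactive X chromosome, reached 2375 CPM in CML untreated and 94.97 CPM in CML imatinib cells. It was at 3.15 CPM in WT imatinib and 1.52 CPM in WT untreated cells. The Y-linked Ddx3y was at 1.504 CPM in CML untreated cells and 29.4 to 45.2 CPM elsewhere. The CML untreated library thus differs in these genes from WT untreated, as well as in disease, and from CML imatinib, as well as in treatment. The headers of WT imatinib and WT untreated shared 1135 cell names, against 80 to 340 for other pairs, but no 2 cells were identical, and cells with the same name had a median cosine of 0.372, against 0.374 for neighbouring names. Each header holds 1 cell name more than there are value columns, so names may be shifted against values, here and wherever WT cells of shared name are left out.

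All 7 genes were low. H2-DMa was the highest of them in every library, at 37.9, 54.1, 75.6 and 101 CPM in CML imatinib, WT imatinib, CML untreated and WT untreated cells. H2-Ab1 varied least, at 28.3, 23.9, 25.6 and 26.6 CPM in the same order. H2-Aa was at 11.4, 8.61, 30.4 and 24.3 CPM, and H2-Eb1 at 12.9, 5.58, 21.8 and 19.8 CPM, so both were lower in the 2 imatinib libraries. H2-DMb1 was at 18.4, 24.5, 16.8 and 15.9 CPM, but it has a near-identical copy, H2-DMb2, and reads may have been split between them. Cd74 had the widest range, at 4.61, 6.43, 15.9 and 43.1 CPM. Ciita was seen in 10, 10, 21 and 12 UMIs, or 1.05, 1.21, 0.987 and 0.912 CPM, and none of its differences exceeded counting error. The 3' tags of this method count transcripts, so these levels are not divided by gene length.

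**Figure D1:**
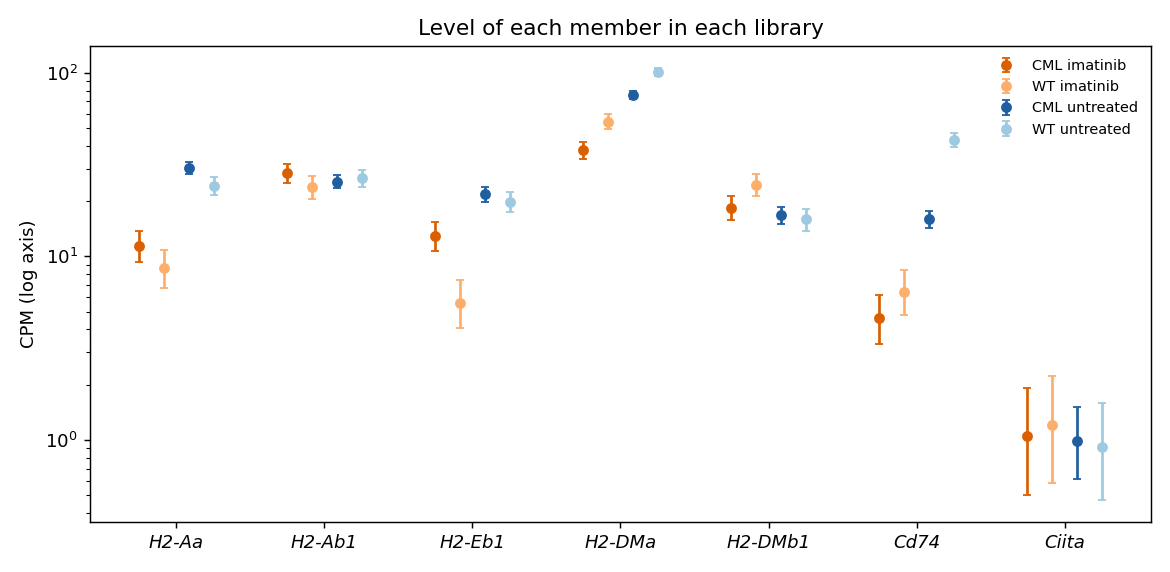
Level of each of the 7 genes in each library, in CPM on a log axis; points are summed UMIs of the kept cells and bars are exact Poisson 95% intervals. Cd74 spans 4.61 to 43.1 CPM across the libraries, while H2-Ab1 stays between 23.9 and 28.3 CPM.

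Few cells carried these transcripts. With every cell thinned to 500 UMIs, H2-DMa was detected in 2.22%, 2.70%, 3.66% and 4.79% of CML imatinib, WT imatinib, CML untreated and WT untreated cells. Cd74 was detected in 0.311%, 0.334%, 0.693% and 1.42%, and H2-Aa in 0.642%, 0.382%, 1.42% and 0.759%. Without thinning, the Cd74 shares were 0.486%, 0.454%, 3.76% and 3.70%. In erythroid cells, which should lack class II, H2-DMa was found in 2.11% of CML untreated and 3.17% of WT untreated cells after thinning, at median depths of 8164 and 5869.5 UMIs before it. The H2-DMa shares over all cells of these libraries, 3.66% and 4.79%, lie within the exact 95% intervals of those erythroid shares, 0.577% to 5.30% and 0.872% to 7.93%. Those erythroid shares rest on 4 cells in each library. By CPM, H2-DMa was lower in erythroid cells than over all cells, at 35.0 CPM (27.1 to 44.5) against 75.6 CPM in CML untreated, and at 41.5 CPM (28.6 to 58.3) against 101 CPM in WT untreated.

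To ask which cells held the transcripts, cells were classed by genes outside the set. Cells with at least 10 UMIs of Jchain form the plasma class, those with Cd79a the B cell class, those with Csf1r the monocyte class and those with Hlf, a transcription factor of haematopoietic stem cells, the stem class. The plasma class was made of antibody-secreting cells by its other genes, with Igha at 82735 CPM in CML untreated and 89977 CPM in WT untreated cells. The stem class carried more Mecom (65.5 CPM in CML untreated, 81.4 CPM in WT untreated) than unclassified cells (31.7 and 33.2 CPM). The B cell class held only 4, 4, 8 and 6 cells of CML imatinib, WT imatinib, CML untreated and WT untreated, and Ms4a1, the CD20 gene, had 0 UMIs in it.

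In the untreated libraries most Cd74 UMIs lay in a small class of plasma cells. The plasma class held 0, 6, 42 and 92 cells of CML imatinib, WT imatinib, CML untreated and WT untreated, where 0 of 5139 cells, read against a floor of 3 cells, allows a share of up to 0.0584%. That floor is for cells with 10 Jchain UMIs in a library whose median depth is 1198 UMIs, so it does not limit plasma cells with fewer. It held 53.4% of the Cd74 UMIs of CML untreated and 82.9% of those of WT untreated cells. By cells, it held 31 of the 114 Cd74-positive CML untreated cells and 78 of the 112 Cd74-positive WT untreated cells. Within it Cd74 stood at 661 CPM (568.6 to 765.2) in CML untreated and 861 CPM (784.9 to 942.4) in WT untreated cells, and 73.8% and 84.8% of these cells had a UMI. In the same plasma cells of CML untreated and WT untreated, H2-Aa was at 21.9 and 23.8 CPM, H2-Eb1 at 51.2 and 76.9 CPM and H2-Ab1 at 102 and 62.3 CPM. Ciita had 0 UMIs there in both.

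**Figure D2:**
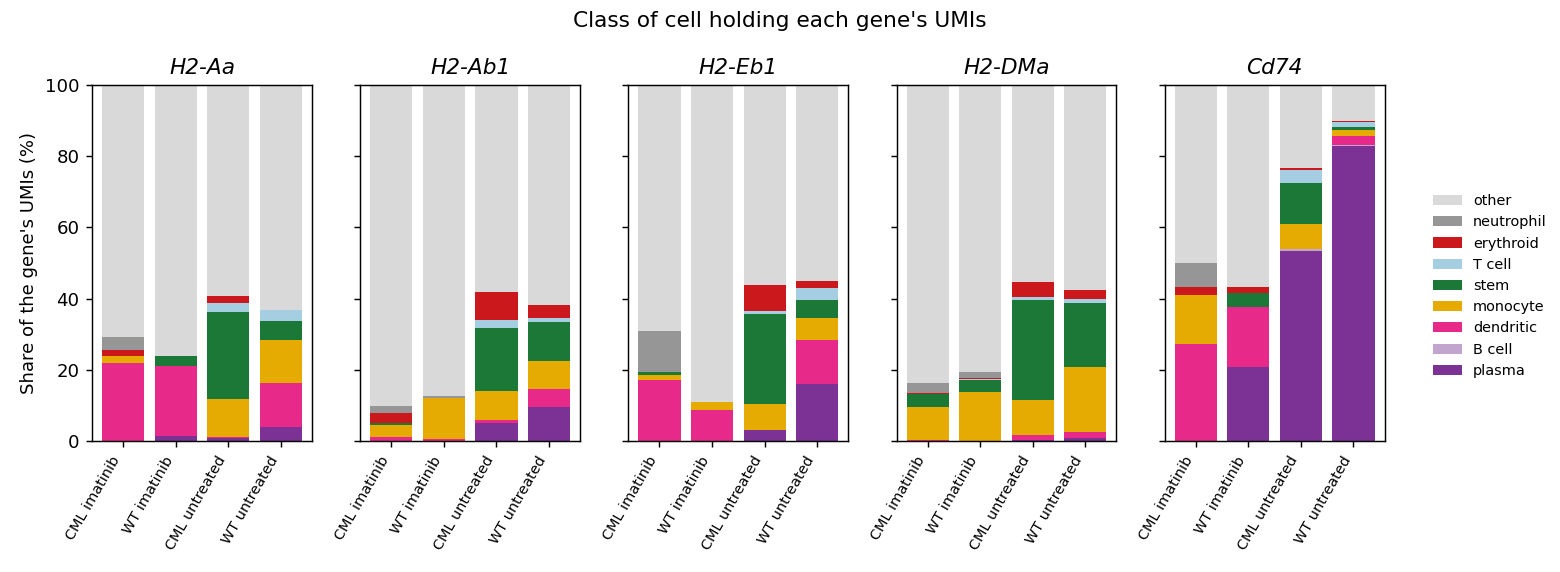
Share of each gene's UMIs, in percent, held by each class of cells, with 1 bar per library. The plasma class takes 82.9% of Cd74 UMIs in WT untreated and 53.4% in CML untreated cells, while unclassified cells hold most H2-DMa.

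Between the untreated libraries, Cd74 was 2.71-fold lower in CML cells, at 15.9 CPM against 43.1 CPM in WT cells (log2 ratio -1.44, interval -1.63 to -1.24). With the plasma and B cell classes left out the log2 ratio was -0.03 (-0.41 to 0.35). H2-DMa was lower in CML cells by a log2 ratio of -0.42 (-0.53 to -0.31), and it was -0.45 without those classes. H2-Aa was higher by 0.32 (0.12 to 0.52), a difference whose interval reached below 0 with TMM scaling (0.15, -0.04 to 0.35). H2-Ab1, H2-Eb1, H2-DMb1 and Ciita had intervals that include 0. For H2-Ab1 this did not hold with TMM scaling (-0.22, -0.42 to -0.03). For H2-Eb1 (0.14) it did not hold without plasma and B cell classes (0.31, 0.07 to 0.55) or without WT cells whose name is in both WT headers (0.43, 0.15 to 0.72). Genes were called at 2-fold or more where the library with more of the gene had 50 CPM and 50 UMIs. By this rule 0 of the 1 eligible member, H2-DMa, differed, where 0.915% of eligible genes did. With a floor of 10 CPM and 10 UMIs, 1 of 6 did, Cd74, beside 1.11% of genes.

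**Figure D3:**
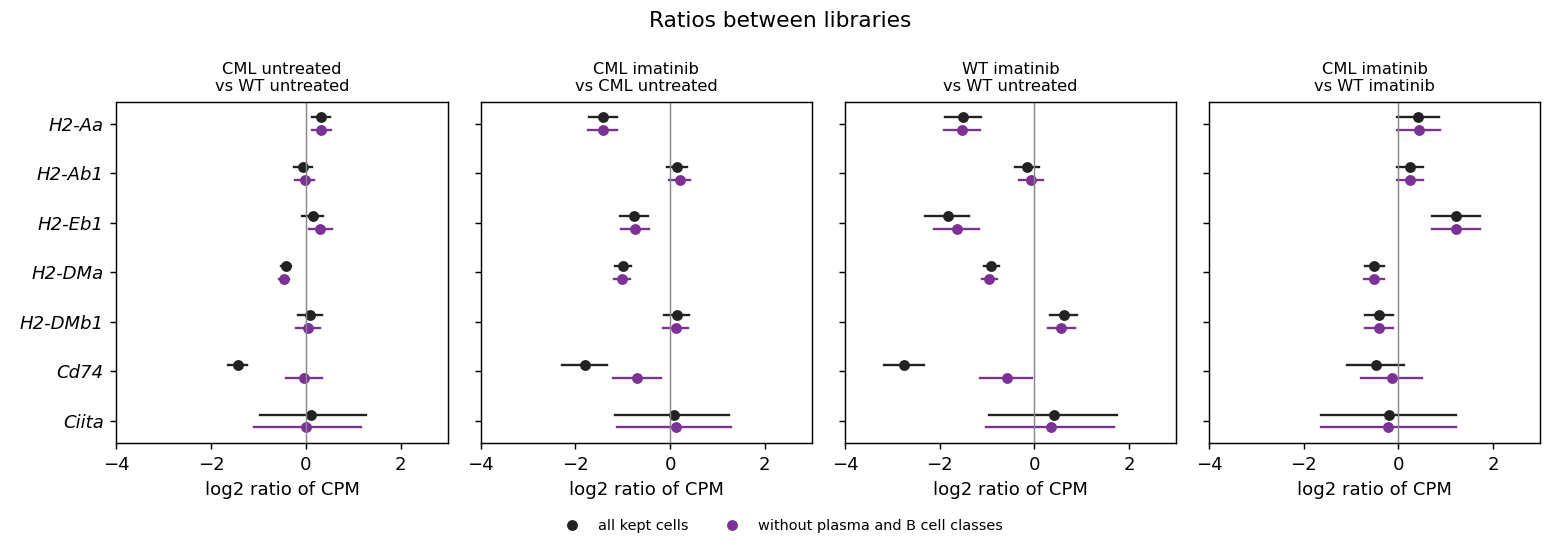
Log2 ratio of CPM for the 7 genes in the 4 comparisons, with exact 95% intervals for counting error; black points use all kept cells, purple points leave out the plasma and B cell classes. Without those classes Cd74 goes to -0.03 in CML untreated against WT untreated cells and to -0.58 in WT imatinib against WT untreated cells, and H2-Eb1 goes to 0.31 in the first of these comparisons.

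In the stem class, the ratios of H2-Aa and H2-Eb1 between the untreated libraries were larger than over all cells. H2-Aa was at 36.8 CPM in CML untreated cells (159 UMIs in 607 cells) and 9.17 CPM in WT untreated cells (17 UMIs in 449 cells), 4.01-fold higher (log2 ratio 2.005, 1.28 to 2.82). Without thinning, 8.40% of CML untreated and 2.67% of WT untreated stem-class cells had an H2-Aa UMI. In unclassified cells these shares were 6.59% and 2.21%, at 33.9 and 27.2 CPM (0.32, 0.07 to 0.57). Thinned to 500 UMIs per cell, the unclassified shares were 1.34% and 0.895%. H2-Eb1 was at 27.3 CPM in CML untreated and 7.01 CPM in WT untreated cells (1.96, 1.13 to 2.91), from 118 and 13 UMIs. Thinned to 500 UMIs per cell, 9 CML untreated and 0 WT untreated stem-class cells had an H2-Eb1 UMI, so no ratio could be taken. Cd74 was at 9.02 CPM in CML untreated and 2.70 CPM in WT untreated cells (1.74, 0.40 to 3.44), from 39 and 5 UMIs. Its interval included 0 with Hlf of at least 2 UMIs (1.66, -0.02 to 4.02) and without WT cells whose name is in both WT headers (1.42, -0.05 to 3.36), and thinned to 500 UMIs per cell its ratio was 0.15 (-2.98 to 3.73). The beta chain H2-Ab1 (22.2 and 20.5 CPM) and H2-DMb1 (20.1 and 22.6 CPM) had intervals that include 0, and H2-DMa was lower in CML cells, at 105 against 128 CPM in WT cells (-0.30, -0.52 to -0.06). The H2-DMa interval included 0 with Hlf of at least 2 UMIs (-0.29, -0.59 to 0.01), thinned (-0.12, -0.93 to 0.70), without cells over 10000 UMIs (-0.17, -0.43 to 0.09) and without the WT cells of shared name (-0.27, -0.54 to 0.01). The 2 chains of I-A thus differed in their ratios. The stem-class levels of H2-Ab1 lay near those in erythroid cells, which should lack class II, at 22.5 CPM in CML untreated and 16.3 CPM in WT untreated.

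The H2-Aa difference in the stem class kept its direction without the cell with most H2-Aa UMIs in each library (2.07), with Hlf of at least 2 UMIs (1.59, 0.73 to 2.58) and without cells over 10000 UMIs (1.83, 1.06 to 2.68). Thinned to 500 UMIs per cell, 16 UMIs remained in CML untreated and 4 in WT untreated stem-class cells, and the interval included 0 (1.57, -0.07 to 3.60). At that depth 2.31% of CML untreated and 0.891% of WT untreated stem-class cells had an H2-Aa UMI. In the erythroid class the shares were 0.526% of CML untreated cells and 0 of 126 WT untreated cells (exact 95% upper bound 2.89%). T cell class shares were 2.24% of 134 CML untreated cells (0.464% to 6.40%) and 0 of 120 WT untreated cells (upper bound 3.03%). The CML untreated stem-class share lies within that T cell interval. Unthinned, H2-Aa in T cells was at 33.4 CPM (18.7 to 55.1) in CML untreated and 32.8 CPM (15.7 to 60.2) in WT untreated. These levels rest on 15 and 10 UMIs, with 6 and 7 of them in 1 cell. Erythroid cells also differed in H2-Eb1, at 17.2 CPM in CML untreated and 6.29 CPM in WT untreated cells (1.46, 0.09 to 3.17), and in H2-Aa, with 13 UMIs in CML untreated and 0 in WT untreated cells. Median depth in the stem class was 5424 UMIs in CML untreated and 3492 in WT untreated cells. The part of free RNA, depth and the Xist and Ddx3y difference in the stem-class result was not tested.

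**Figure D4:**
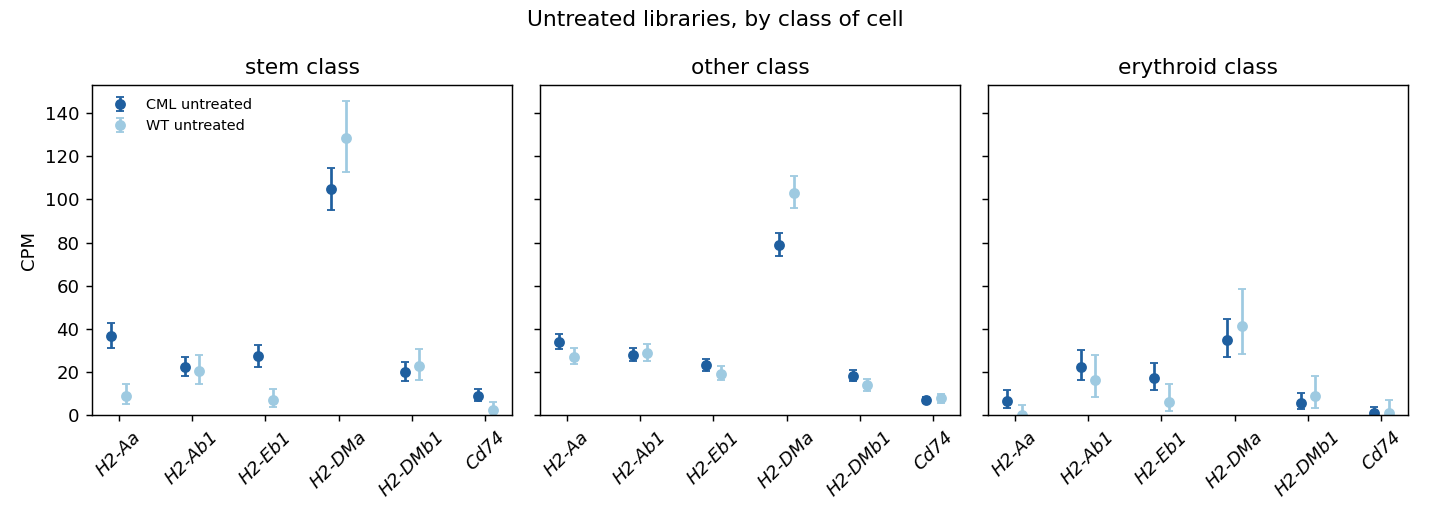
CPM of 6 of the genes in the stem, unclassified ("other") and erythroid classes of the CML untreated and WT untreated libraries, with exact Poisson 95% intervals. H2-Aa reads 36.8 against 9.17 CPM in the stem class and 33.9 against 27.2 CPM in unclassified cells.

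In the monocyte class H2-DMa was at 57.2 CPM in CML untreated and 115 CPM in WT untreated cells (log2 ratio -1.01, -1.31 to -0.71), and in unclassified cells it was lower in CML as well (-0.39, -0.53 to -0.24). Irf8, a factor of monocyte and dendritic cell fate, also stood lower there, at 226 CPM in CML untreated and 570 CPM in WT untreated cells. The monocyte-class values of H2-Aa and Cd74 rested on single cells: leaving out the cell with most UMIs in each library moved the Cd74 log2 ratio to -1.20, against 1.02 with them, and the H2-Aa ratio to 1.54, against 0.43.

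In imatinib-treated CML mice, 4 members were lower than in untreated CML mice, whose library also differs in Xist and Ddx3y. Cd74 had a log2 ratio of -1.79 (-2.28 to -1.33), H2-Aa -1.41 (-1.72 to -1.11), H2-DMa -0.99 (-1.16 to -0.83) and H2-Eb1 -0.76 (-1.06 to -0.47). Without plasma and B cell classes Cd74 was at -0.69 (-1.21 to -0.20). H2-Ab1 and H2-DMb1 were at 0.15 and 0.14, with intervals that include 0 and a negative sign under TMM scaling (-0.17 and -0.18). The H2-Ab1 interval lay above 0 with no cell filter (0.24, 0.03 to 0.44) and thinned to 500 UMIs per cell (0.53, 0.002 to 1.07). By the 2-fold rule 0 of 1 eligible member differed, beside 17.4% of eligible genes, and with the lower floor 2 of 6 did, beside 19.4%. In unclassified cells H2-Aa was at 11.4 CPM in CML imatinib and 33.9 CPM in CML untreated cells (-1.58, -1.95 to -1.22). Over all classes, with at least 1000 UMIs per cell the ratios of H2-Aa and H2-Eb1 were -2.10 and -1.96. With no cell filter they were -1.11 and -0.54. Thinned to 500 UMIs per cell, H2-Aa was at -1.13 (-1.66 to -0.60) and H2-Eb1 at -0.74 (-1.28 to -0.19). H2-DMa thinned was at -0.62 (-0.99 to -0.24). By class, unthinned, H2-DMa was at -0.82 (-1.01 to -0.63) in unclassified cells and -0.43 (-1.35 to 0.36) in the stem class. In the monocyte class its sign was opposite, at 0.50 (-0.08 to 1.05). In erythroid cells, which should lack class II, H2-DMa was at 0.668 CPM in CML imatinib and 35.0 CPM in CML untreated (-5.71, -11.0 to -3.18), from 1 and 67 UMIs. The stem class of the CML imatinib library had 93 cells and 0 H2-Aa UMIs among 167146 UMIs (upper bound 22.1 CPM). That of CML untreated stood at 36.8 CPM (31.3 to 43.0). The WT imatinib stem class had 105 cells and 2 H2-Aa UMIs, or 10.4 CPM (1.26 to 37.7). This was not lower than the 9.17 CPM (5.34 to 14.7) of the WT untreated stem class.

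WT mice given imatinib showed the same direction in these 4 genes against untreated WT mice. Cd74 had a log2 ratio of -2.75 (-3.18 to -2.34), H2-Eb1 -1.82 (-2.31 to -1.37), H2-Aa -1.50 (-1.89 to -1.12) and H2-DMa -0.90 (-1.06 to -0.75). Without plasma and B cell classes Cd74 was at -0.58 (-1.14 to -0.04). H2-DMb1 was higher, at 24.5 CPM in WT imatinib and 15.9 CPM in WT untreated cells (0.62, 0.34 to 0.91). The 2-fold rule called 0 of 1 eligible member, beside 13% of eligible genes, and with the lower floor 3 of 6, beside 15.1%, so the members' counts are to be read against a background in which many genes differ with treatment and depth. Thinned to 500 UMIs, H2-Eb1 had a log2 ratio of -0.50 whose interval included 0 (-1.18 to 0.17), and with at least 1000 UMIs per cell it was -5.17. H2-Aa was at -2.89 with that filter, at -0.79 (-1.35 to -0.24) thinned, and at -1.01 without WT cells whose name is in both WT headers.

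Under imatinib, H2-Eb1 was 2.31-fold higher in CML than in WT mice, at 12.9 CPM in CML imatinib and 5.58 CPM in WT imatinib cells (log2 ratio 1.21, 0.71 to 1.73). The CML imatinib value came from 123 UMIs in 51 cells, with 21 in 1 cell. That of WT imatinib came from 46 UMIs in only 10 cells, with 12 in 1 cell. The interval does not cover such grouping of UMIs in few cells. After thinning to 500 UMIs per cell the log2 ratio was 0.30 (-0.31 to 0.92), and with at least 1000 UMIs per cell 3.35 (1.89 to 5.29). H2-DMa was lower in CML cells (-0.51, -0.72 to -0.31) and H2-DMb1 too (-0.41, -0.71 to -0.11), but both intervals included 0 after thinning (-0.19, -0.56 to 0.18 and -0.32, -0.91 to 0.26). H2-Aa had a ratio of 0.41 (-0.04 to 0.86), which was 1.11 (0.39 to 1.86) with at least 1000 UMIs per cell, 0.65 (0.24 to 1.07) with no cell filter and -0.19 (-0.76 to 0.39) thinned. The 2-fold rule called 0 of 1 eligible member, beside 2.5% of eligible genes, and with the lower floor 1 of 5, H2-Eb1, beside 4.03%.

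A few cells carried many class II transcripts. Cells with at least 10 UMIs over H2-Aa, H2-Ab1 and H2-Eb1, a cut chosen after their values were seen, numbered 2, 5, 20 and 12 in CML imatinib, WT imatinib, CML untreated and WT untreated. They held 14.7%, 28.0%, 31.3% and 47.8% of the UMIs of the 3 genes. A fixed number of UMIs is met more easily by deep cells. The 20 CML untreated cells had a median depth of 11932.5 UMIs, above the library's 5160.5, and 65% had a Kit UMI, at 106 CPM against 150 CPM in the library's other cells. The 12 WT untreated cells had a median depth of 2246 UMIs, below the library's 3637.5, and 8.33% had a Kit UMI, at 25.9 CPM against 136 CPM in the other cells. The cell with the most, in CML untreated, held 61 H2-Aa, 14 H2-Ab1, 60 H2-Eb1 and 26 Cd74 UMIs. In WT untreated the highest cell held 38, 17, 32 and 15 of these UMIs and 35 of Cst3, a gene of dendritic cells. Cst3 was at 3574 CPM against 390 CPM in the other cells of WT untreated, but 354 against 306 CPM in CML untreated. The next-highest CML untreated cell, of the monocyte class, held 36 C1qa, 15 Axl and 15 Csf1r UMIs. Id2, a factor of dendritic and innate lymphoid cells, was in 11 of the 12 WT untreated cells and 5 of the 20 CML untreated cells. It was at 1632 CPM against 32.2 CPM in the other cells of WT untreated, and 185 against 31.3 CPM in CML untreated. Thy1 and Klrb1b, genes of lymphocytes, were in 4 and 3 of the CML untreated cells and each in 5 of the WT untreated cells. Thy1 was at 907 CPM against 34.5 CPM in the other cells of WT untreated, but 35.4 against 39.6 CPM in CML untreated. Klrb1b was at 440 against 0.915 CPM in WT untreated and 35.4 against 1.90 CPM in CML untreated. Dntt, which edits antigen receptor genes in lymphoid progenitors, was in 5 of the 20 CML untreated cells and 1 of the 12 WT untreated cells. It was at 436 CPM against 120 CPM in the other cells of CML untreated, but 51.8 against 193 CPM in WT untreated. Cd79b and Ms4a1, which mark B cells, had 0 UMIs in all of these cells.

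**Figure D5:**
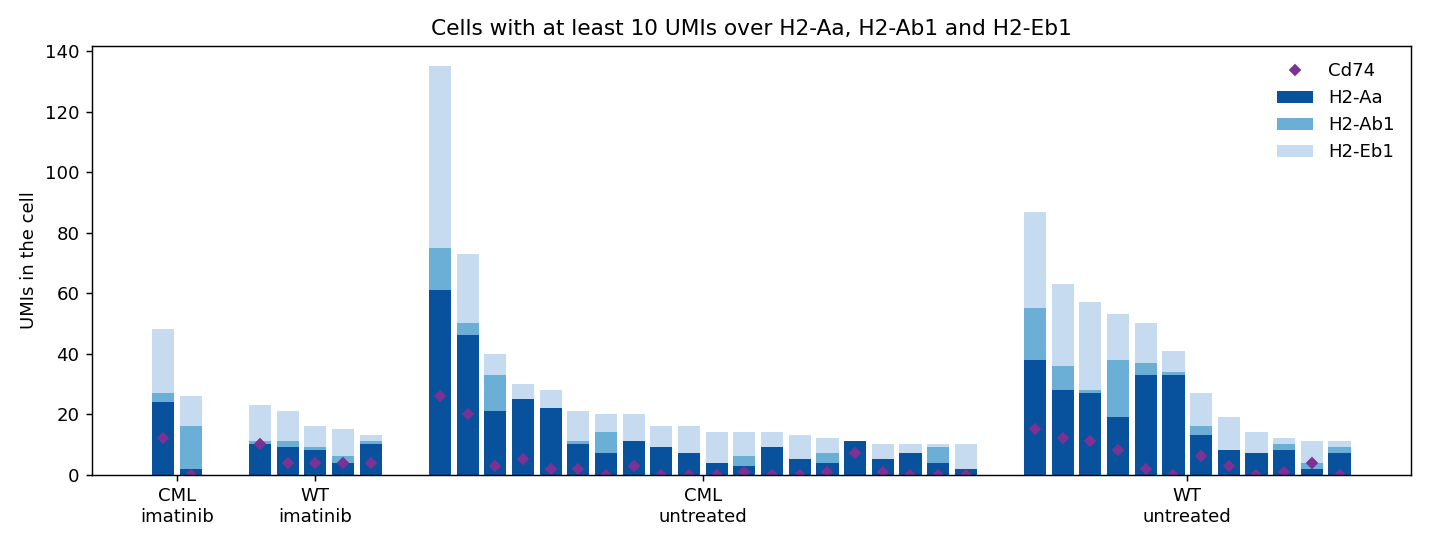
UMIs of H2-Aa, H2-Ab1 and H2-Eb1 (stacked bars) and Cd74 (diamonds) in each cell with at least 10 UMIs over the 3 genes, by library. The highest bar is a CML untreated cell with 61, 14 and 60 UMIs of these genes; most CML untreated cells lie under 40.

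The chains were partly found in the same cells. Of H2-Aa-positive cells, 13.5%, 26.9%, 31.0% and 32.4% had an H2-Eb1 UMI in CML imatinib, WT imatinib, CML untreated and WT untreated, against 0.992%, 0.239%, 4.95% and 2.38% of all cells. Cd74 was in 3.85%, 34.6%, 16.8% and 28.4% of H2-Aa-positive cells, against 0.486%, 0.454%, 3.76% and 3.70% of all cells. H2-DMa was in 34.0% and 35.1% of H2-Aa-positive cells of CML untreated and WT untreated, close to its 30.1% and 29.5% of all cells. The depth of these cells was not matched, so the shares are a description.

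Among genes that work with class II, H2-Ob, a chain of the H2-DM inhibitor H2-DO, was at 7.34 CPM in CML imatinib and 29.4 CPM in CML untreated cells (log2 ratio -2.00), and at 5.46 and 40.2 CPM in WT imatinib and WT untreated cells (-2.88). Ctss, the protease that trims the invariant chain, was at 38.6 CPM in CML untreated and 75.4 CPM in WT untreated cells (-0.97), and lower with imatinib in CML (-0.99) and WT (-1.15). Ctsl, a cathepsin, and Ifi30, a thiol reductase of the antigen pathway, were higher with imatinib, by 0.92 and 0.69 in CML and by 0.51 and 0.55 in WT. Of 8 partner genes listed, 5 passed the lower floor between the untreated libraries and 0 were past 2-fold, where 1.11% of genes at that floor were, with a median of -0.45 beside 0.03 for all genes. Among 12 transcription genes, Irf8 was at 84.0 CPM in CML untreated and 204 CPM in WT untreated cells (-1.28), and it was the only one of 8 past 2-fold at that floor, beside the same 1.11%. Spi1, the PU.1 myeloid factor, was at 241 CPM in CML imatinib and 100.2 CPM in CML untreated cells (1.27), with a ratio of 1.20 in WT.

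Class I genes, which show peptides from inside the cell, were also counted between the untreated libraries: of 15 at the lower floor 0 were past 2-fold, beside 1.11% of genes at that floor, with H2-K1 at 2379 CPM in CML untreated and 1797 CPM in WT untreated cells (0.41). With imatinib, 1 of 15 was higher and 4 lower by 2-fold in CML, beside 19.4% of genes in either direction, among them H2-Q7 (-2.14), H2-K1 (-1.44) and B2m (-1.21), and in WT 1 was higher and 4 lower, beside 15.1%, among them H2-Q7 (-1.82). H2-Q4 was higher in both, by 1.33 in CML and 1.05 in WT. The class I H2 genes are alike in sequence, so their counts may be split between copies. Gbp2, an interferon-induced GTPase, was at 10.5 CPM in CML imatinib and 56.0 CPM in CML untreated cells (-2.42), and at 8.85 and 42.6 CPM in WT imatinib and WT untreated cells (-2.27). Ifngr1, a chain of the interferon gamma receptor, was higher with imatinib, by 0.95 in CML and 1.54 in WT.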

How the data were processed

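Bone marrow LSK cells were measured in 4 inDrop libraries, 1 per group. The deposited values are a normalized signal per gene and cell; GRCm38 (mm10), Bowtie 1.1.1 and Partek 8.0 stand in the submitters' processing notes, with roles not given in the sources used here. Each value was divided by the smallest nonzero value of its cell and rounded, which gave whole UMIs for 100% of entries (tolerance 0.02). Cells with at least 500 UMIs, 200 genes and at most 20% mitochondrial UMIs were kept, with 9540004, 8245224, 21283108 and 13153658 UMIs in CML imatinib, WT imatinib, CML untreated and WT untreated, a floor (3 counts) of 0.314, 0.364, 0.141 and 0.228 CPM. UMIs were summed per library or class. Ratios have exact conditional binomial, CPM exact Poisson and shares exact Clopper-Pearson 95% intervals; the ratio code was tested on simulated data. Classes were assigned in order (plasma, T cell, B cell, dendritic, erythroid, neutrophil, monocyte, stem). No doublet caller was run; 30 of 42 CML untreated and 69 of 92 WT untreated plasma-class cells also met another class. All 7 members are named, and up to 4 genes of each pathway list with the largest absolute log2 ratio at 20 CPM or more. Cst3, Id2, Thy1, Klrb1b, Dntt, C1qa and Axl, given for cells with many class II UMIs, were picked outside those lists and this rule. Members and lists were chosen with earlier results of these data known. The longer Y box was searched before its core, and the core was chosen after the matches were seen. TMM factors came from edgeR 4.0.16 in R 4.3.3, as an alternative only; the rest used Python 3.11.15, numpy 2.4.6, scipy 1.17.1 and pandas 2.3.3.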

Additional observations from a re-analysis of the deposited data

Results flagged for a closer look

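In 4 cases the same contrast had opposite signs in 2 settings, with 1 library in each; the difference between the ratios was not tested. With imatinib H2-Ab1 had a log2 ratio of 0.15 (-0.07 to 0.36) in CML and -0.16 (-0.41 to 0.10) in WT mice. In CML against WT mice, H2-Ab1 had 0.24 (-0.03 to 0.52) under imatinib and -0.06 (-0.25 to 0.14) untreated. H2-DMb1 had -0.41 (-0.71 to -0.11) under imatinib and 0.08 (-0.17 to 0.33) untreated. Ciita had -0.21 (-1.63 to 1.21) under imatinib and 0.11 (-0.98 to 1.27) untreated, from 10 to 21 UMIs. Apart from H2-DMb1 under imatinib, every one of these intervals includes 0.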

How the results depend on the processing

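No paired analysis was possible because each group holds 1 library. Under alternatives there were 234 member-level values, apart from the library-wide Cd74 ratios and shares and the counts past 2-fold below. Of these, 192 stayed within the interval of the reported value and 42 did not. Of ratios whose reported interval leaves out 0, 0 changed sign. Ratios whose interval includes 0 were not counted in this, and some changed sign. One was H2-Eb1 between the untreated libraries, at 0.14 and at -0.03 with TMM scaling. Part of the 192 could not have moved. Neither untreated library loses a kept cell at 1000 UMIs, and leaving out WT cells of shared name removes no CML cell. TMM scaling shifted every log2 ratio by -0.17 between the untreated libraries, -0.32 for imatinib in CML, -0.25 for imatinib in WT and -0.24 for CML against WT under imatinib. The Cd74 log2 ratio, -1.44 between the untreated libraries, was -1.10 with cells thinned to 500 UMIs and -0.034 without plasma and B cell classes. For imatinib in CML (-1.79) it was -2.61 with at least 1000 UMIs per cell, -0.98 thinned and -0.69 without those classes. For imatinib in WT (-2.75) it was -4.05, -1.42 and -0.58 in the same order. Members past 2-fold, 0 in each comparison, numbered 1, 1 and 2 under TMM scaling in the first 3 comparisons, 1 for imatinib in CML with at least 1000 UMIs or without plasma and B cell classes, and 1, 2, 3 and 1 with the lower floor in the 4 comparisons. Cd74-positive shares, 0.311%, 0.334%, 0.693% and 1.42% in CML imatinib, WT imatinib, CML untreated and WT untreated, were 0.0584%, 0.143%, 0.0989% and 0.429% at 2 or more UMIs, and 0.139%, 1.39% and 2.21% thinned to 1000 UMIs in WT imatinib, CML untreated and WT untreated. Why these values moved was not tested beyond what each alternative leaves out. Leaving out the cell with most UMIs, WT cells whose name is in both WT headers, or cells over 10000 UMIs were alternatives chosen after seeing the data.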

Other observations

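Over the 22 class-by-library sums with at least 20 cells, the genes whose log2(CPM + 10) followed the summed level of the 7 members most closely were H13 (Pearson r 0.88), Tmem176b (0.84), Zscan26 (0.83), Jkamp and Rnase6 (0.81 each), Dusp22 and Pafah1b3 (0.80 each) and P2rx4 (0.79). The sums share libraries, depth and class markers, so these values describe the sums only. Of the members themselves, H2-Ab1, Cd74 and H2-Eb1 had r of 0.82, 0.81 and 0.81, while H2-DMa had 0.44 and H2-DMb1 0.18.

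Cells with at least 5 UMIs over H2-Aa, H2-Ab1 and H2-Eb1 drew all of them from 1 of the 3 genes in 73.3% of 15 CML imatinib cells, 14.3% of 7 WT imatinib cells, 34.9% of 86 CML untreated cells and 5% of 20 WT untreated cells. The cut was chosen after the values were seen.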
